A study of Homo sapiens with 6 samples.

Results

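The 10 genes described here encode AP-1 subunits and other immediate-early proteins: FOS, FOSB, FOSL1 and FOSL2 of the FOS family, JUN, JUNB and JUND of the JUN family, the zinc-finger factor EGR1, and the immediate-early response genes IER2 and IER3. They were taken as a fixed list of symbols, matched to Ensembl identifiers with GENCODE 29, and are 10 of 56868 annotated genes listed in both deposited expression tables. All 10 passed the filter on low values, an FPKM (fragments per kilobase of transcript, scaled to library size) of at least 1 in at least 2 libraries. IER3 passed only through the first table.

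The libraries came from U2OS, a human osteosarcoma cell line, and 3 were of wild-type (WT) cells and 3 of 1 clone, G3C2, edited with CRISPR/Cas9 and labelled ZFP36L1 deficient. ZFP36L1 is a zinc-finger protein that binds AU-rich sequence near the 3′ end of mRNAs and promotes their decay. Both kinds of cell were in log-phase growth at 65 to 75% confluency in medium with 10% serum, with no stimulus named in the labels, and poly(A) RNA was sequenced. Each genotype had a library without a letter, called replicate 1 here and deposited in a first table, and libraries b and c in a second. The series describes 3 occasions, but no label ties a library to an occasion, so the spread on which the p-values rest may be partly technical. With 1 clone, the genotype and the clone cannot be told apart, and in bulk RNA fewer cells expressing a gene and less of its RNA per cell cannot be told apart.

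AP-1 is a dimer of basic leucine-zipper proteins, in which FOS-family subunits pair with JUN-family subunits and JUN-family subunits can also pair with each other. Growth factors in serum, stress and MAP kinase signalling induce FOS, FOSB, JUNB, EGR1 and the IER genes within minutes, through serum response factor at CArG boxes, CREB or ATF proteins at cyclic-AMP response elements, and AP-1 itself. Their mRNAs are short-lived, and AU-rich elements in several of them are a classic case of regulated decay. FOSL1, FOSL2 and JUND usually follow a slower or steadier course. In osteosarcoma, high FOS is a long-known feature, and FOS-driven mouse models form bone tumours.

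Promoter sequence was available for 8 of the 10 genes, in a RefSeq table on build GRCh38.p14 running from 250 bases before to 50 bases after the start site. EGR1, FOS and FOSB are printed because they had the lowest clone-to-WT ratios of these genes in the second table. JUND is printed because its level as deposited differed little between genotypes. Capitals mark matches, on either strand, to the AP-1 site TGANTCA, the full cyclic-AMP response element TGACGTCA, its core TGACG (which lies inside the full element, and reads CGTCA when on the other strand), the EGR site GCGNGGGCG and the CArG box. The CArG box was taken as 10 bases: CC, then only A or T, then GG.
EGR1 promoter, chr5:138465229-138465528, plus strand: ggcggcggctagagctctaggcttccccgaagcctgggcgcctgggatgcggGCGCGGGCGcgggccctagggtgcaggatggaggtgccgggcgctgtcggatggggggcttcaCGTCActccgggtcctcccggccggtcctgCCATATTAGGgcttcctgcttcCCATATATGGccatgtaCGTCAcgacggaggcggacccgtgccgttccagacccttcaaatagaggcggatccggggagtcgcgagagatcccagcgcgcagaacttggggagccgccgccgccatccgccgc
FOS promoter, chr14:75278578-75278877, plus strand: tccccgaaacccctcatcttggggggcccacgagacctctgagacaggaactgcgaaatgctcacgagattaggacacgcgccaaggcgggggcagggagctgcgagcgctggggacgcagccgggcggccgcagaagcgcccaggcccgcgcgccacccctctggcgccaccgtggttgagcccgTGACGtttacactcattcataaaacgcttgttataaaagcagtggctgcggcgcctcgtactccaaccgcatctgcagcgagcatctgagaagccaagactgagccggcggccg
FOSB promoter, chr19:45467746-45468045, plus strand: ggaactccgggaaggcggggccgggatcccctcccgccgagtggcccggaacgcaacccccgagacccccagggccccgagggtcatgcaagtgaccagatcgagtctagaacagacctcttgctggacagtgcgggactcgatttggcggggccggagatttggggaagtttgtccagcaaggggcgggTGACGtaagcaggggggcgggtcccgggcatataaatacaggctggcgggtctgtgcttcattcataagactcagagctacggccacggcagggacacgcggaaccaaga
JUND promoter, chr19:18281573-18281872, minus strand: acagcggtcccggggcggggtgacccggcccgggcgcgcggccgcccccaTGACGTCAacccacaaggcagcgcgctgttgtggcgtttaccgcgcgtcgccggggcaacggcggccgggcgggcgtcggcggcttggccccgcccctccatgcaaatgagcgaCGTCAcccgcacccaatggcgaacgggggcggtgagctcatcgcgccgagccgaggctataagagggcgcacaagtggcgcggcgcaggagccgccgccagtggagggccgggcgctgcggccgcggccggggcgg

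EGR1 was the one member promoter of 8 with CArG boxes in this window, and it held 2, at -105 to -96 and at -83 to -74 from the start. Sequence further than 250 bases before the start was not searched, so a CArG box there would be missed in any member, FOS included. A CArG box was present in 1.29% of the 35116 promoters in the table. The core TGACG was present in 8 of 8 member promoters and in 24.6% of all promoters, at -64 to -60 in FOS and at -60 to -56 in FOSB. JUND carried the full element TGACGTCA at -200 to -193, which 1.85% of promoters hold. FOSL2 had the one AP-1 site among the members, at 5 to 11 after the start, against 7.71% of promoters, and EGR1 the one EGR site, against 9.43%. These matches describe letters in the window and are not binding data.

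The second kind of sequence shown is the AU-rich heptamer TATTTAT, the core recognised by ZFP36-family proteins, searched per gene in its longest 3′ untranslated region in GENCODE 29 (build GRCh38). It was present in 7 of the 10 members, with 12 matches, and in 30.9% of 19122 genes searched (35.9% of the tested ones). Capitals mark the heptamer in sites of FOS, FOSB, JUN and IER3, the gene with the most matches.
FOS site 1, chr14:75282063-75282085, plus strand: ttttaattTATTTATtaagatgg
FOS site 2, chr14:75282087-75282109, plus strand: ttctcagaTATTTATatttttat
FOSB site 1, chr19:45474534-45474556, plus strand: tccttagcTATTTATccctttcc
JUN site 1, chr1:58780822-58780844, minus strand: cttatgaaTATTTATaacagcat
IER3 site 1, chr6:30743656-30743678, minus strand: ctaattaaTATTTATatgtattt

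FOS had 2 heptamers in 806 bases, FOSB 1 in 2167, FOSL1 1 in 837, FOSL2 2 in 4864, JUN 1 in 1287, JUND 1 in 681 and IER3 4 in 903. JUNB, EGR1 and IER2 had 0. Of the 3 members with the lowest clone-to-WT ratios in the second table, FOS and FOSB thus carried the heptamer and EGR1 did not.

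The second table held between 22610000 and 28980000 recovered reads per library, and the depth of the first table was not recovered. The tables had different scales, so levels are compared within a table. ZFP36L1 mRNA had FPKM of 165.2 in WT 1, 238.1 in G3C2 1, 57.1 in WT b, 105.1 in G3C2 b, 127.5 in WT c and 82.4 in G3C2 c. Its genotypes overlapped, with a log2 fold change of 0.26 (SE 0.33, limma adjusted p = 0.752). Since an edit need not lower the transcript, this level does not check the genotype. COL1A1 (82.1 to 898.8), SPARC (190.9 to 908.1) and RUNX2 (6.41 to 46.4 FPKM) of the osteoblast lineage were present in all 6 libraries, whereas IBSP was at 0, SP7 at no more than 0.0247, BGLAP at no more than 0.43, COL1A2 at no more than 0.521 and ALPL at no more than 0.798. Of the epithelial markers, EPCAM was at 3.05 to 18.7 FPKM and KRT14 at 0.194 to 6.30, and CDH1, KRT19 and KRT5 did not exceed 1.01. The blood-cell markers PTPRC, CD3E, CD14 and HBB did not exceed 0.444 FPKM. Pair c differed most between the genotypes: 13.7% of the 15001 tested genes differed by at least 1 on the log2 scale, against 2.33% in pair b and 5.23% in pair 1. The mitochondrial share of FPKM was 13.8% in WT c and 6.67% in G3C2 c, and 8.72% and 7.39% in the b libraries. The part of these library differences in the results was not tested.

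The question for these genes was whether their mRNAs differed between the clone and WT cells. In the second table, EGR1, FOS and FOSB were lower in both clone libraries, by at least 2.54-fold within a same-labelled pair. Across labels the gap was narrower for FOS, with 42.5 FPKM in G3C2 b beside 56.7 in WT c. JUNB and IER2 were moderately lower in the second table and JUN slightly lower. In the first table, by contrast, EGR1, JUNB and JUN were close to WT and FOS, FOSB and IER2 above it. The genotype difference was tested with limma on log2(FPKM + 1) over all 6 libraries with a term for table, and all fold changes are the clone minus WT on that scale, which understates changes of low genes. None of the 10 passed the adjusted threshold of 0.05 in this test, and 0 had an unadjusted p under 0.05. Among all 15001 genes tested, 3 were called higher (0.02%) and 4 lower (0.0267%), or 0 and 1 with the replicate label as a block. An unadjusted p under 0.05 was found for 13.6% of them, beside 0 of the 10. That 0 depends on the fit: it was 1 with the replicate block, beside 785 higher and 997 lower of all tested genes. With the second table alone it was 2, beside 539 and 571. With that table and the block it was 3 (FOS, FOSB and EGR1), beside 360 and 493. With that table's reads fitted by limma-voom, which kept the deposited scale, it was the same 3, beside 548 and 606. With quantile normalization it was 1 (JUN), beside 1067 and 1075. No adjusted p of a member passed in these fits. With libraries left out the count was 0 to 3. The median log2 fold change of the 10 was -0.33, beside 0.01 over all tested genes, and their median SE was 0.32, beside 0.18. Without IER3 the median log2 fold change of the other 9 was -0.37.

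Counted by direction, 2 members (JUN and JUNB) were lower in the clone in all 3 same-labelled pairs, against 18.6% of tested genes, and 0 were higher in all 3, against 17.8%. The first count is near the background, and the sign of JUNB in pair 1 turned under other scalings. Within the second table, both clone libraries lay below both WT libraries for 6 members (FOS, FOSB, JUN, JUNB, EGR1 and IER2), against 17.9% of tested genes, and above both for 0, against 22.1%. With clone replicate b alone, 8 members lay below both WT libraries (29.1% of all genes), and with clone replicate c alone also 8 (34.1%), or 7 without IER3, whose second-table values are near 0 as described below. A difference of -1 or lower on the log2 scale in both pairs b and c was seen for 3 members, FOS, FOSB and EGR1, against 0.48% of tested genes. In pair b alone the count was 3 (0.927% of genes) and in pair c alone 4, with JUNB added (5% of genes). The second-table counts rest on 2 libraries per genotype, and those by pair also on the labels, which give no ground for pairing there. Across labels, G3C2 b minus WT c was -0.41 for FOS, -1.01 for FOSB and -1.51 for EGR1 on the log2 scale. G3C2 c minus WT b was -4.28, -3.05 and -4.31 in the same order. With the labels crossed, FOS would thus not reach -1 in both pairs.

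**Figure D1:**
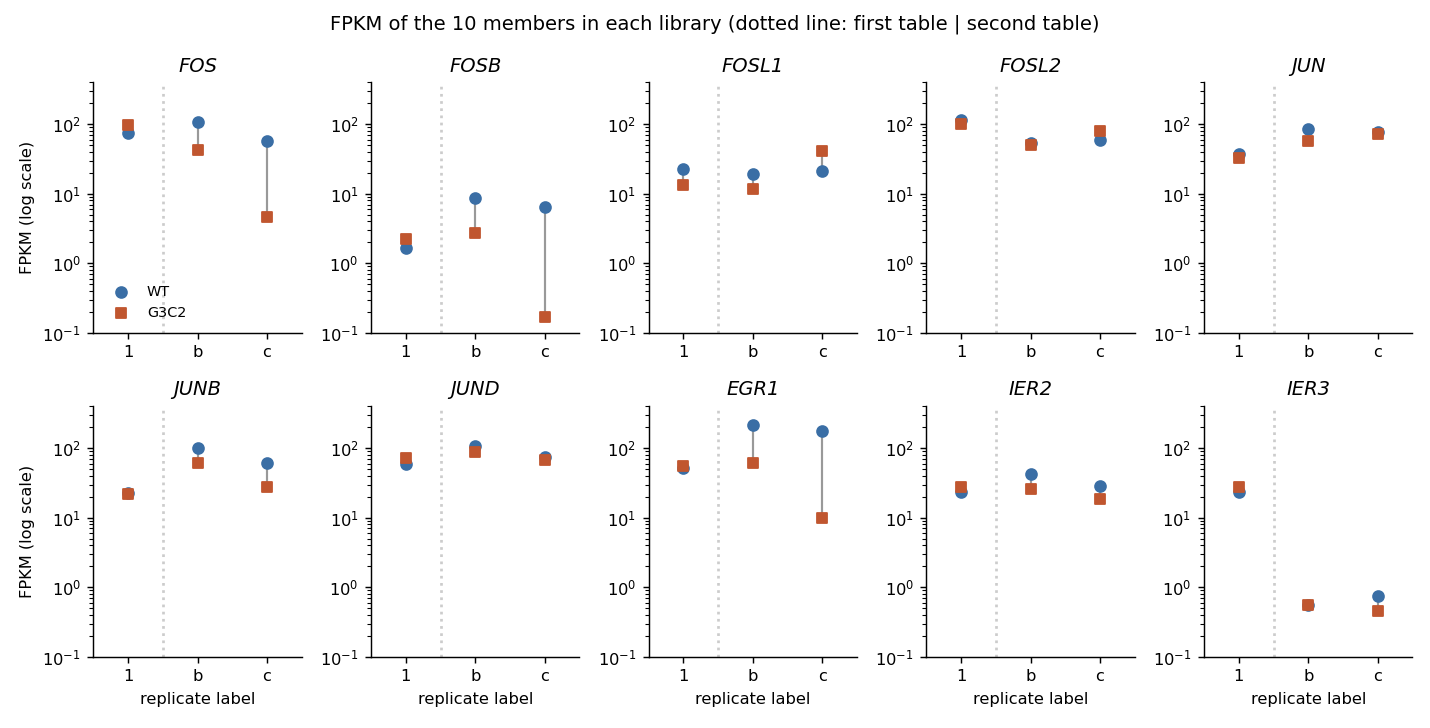
FPKM (log axis) of each of the 10 genes in the 6 libraries; circles are WT, squares the clone G3C2, lines join libraries of the same label, and the dotted line parts the first table (replicate 1) from the second (b and c). EGR1, FOS and FOSB show wide gaps in b and c and none of that kind in 1, and IER3 is near 0.5 FPKM in the second table only.

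FOS (ENSG00000170345, chromosome 14, 75278774 to 75282230, GRCh38), the best-known partner of JUN, had FPKM of 75.2 in WT 1 and 98.1 in G3C2 1. In the second table it had 107.8 in WT b, 42.5 in G3C2 b, 56.7 in WT c and 4.61 in G3C2 c. Both clone libraries of the second table were below both WT libraries, and G3C2 c was far below all the others, while in the first table the clone was the higher one. WT b exceeded G3C2 b 2.54-fold and WT c exceeded G3C2 c 12.3-fold. The second-table levels rested on 10357, 3646, 4661 and 337 recovered reads in that order, the last with an exact 95% Poisson interval of 302 to 375, which covers counting error only. The spread between the clone libraries exceeded the fitted genotype difference: G3C2 b was 9.20-fold above G3C2 c and WT b 1.90-fold above WT c. In the fit, FOS had a log2 fold change of -1.44 (n = 3 libraries per genotype, SE 0.89, limma adjusted p = 0.522), with an SE larger than that of 99.95% of tested genes. Without G3C2 c it was -0.33, without WT b -0.91 and without replicate 1 -2.34, so the estimate depends on these libraries.

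FOSB (ENSG00000125740, chromosome 19, 45467995 to 45475179), a FOS paralog that is induced alongside it, was the least abundant of the FOS family. It had FPKM of 1.64 in WT 1, 2.25 in G3C2 1, 8.70 in WT b, 2.74 in G3C2 b, 6.55 in WT c and 0.168 in G3C2 c. The order of the libraries in the second table matched that of FOS, with both clone libraries below both WT libraries. WT b exceeded G3C2 b 3.18-fold and WT c exceeded G3C2 c 39.1-fold, the latter from 21 recovered reads in G3C2 c (95% interval 13.0 to 32.1) against 924 in WT c. FOSB had a log2 fold change of -1.26 (SE 0.61, limma adjusted p = 0.432). It was -0.55 without G3C2 c, -2.03 without replicate 1, -1.94 with a pseudocount of 0.1 in place of 1, and -3.40 when second-table reads were fitted by limma-voom.

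FOSL1 (ENSG00000175592, chromosome 11, 65892049 to 65900573), also called FRA1 and often raised in invasive tumour cells, did not share the order of FOS and FOSB over the libraries. Its FPKM were 22.9 in WT 1 and 13.3 in G3C2 1, 19.3 in WT b and 11.8 in G3C2 b, and 21.2 in WT c and 41.6 in G3C2 c. The clone was thus the lower library in pairs 1 and b and the higher one in pair c, where it was 1.96-fold above WT as deposited. With quantile normalization within tables the pair c difference went from 0.94 to 0.48, so its size depends on the scaling. WT b and WT c were close to each other, and G3C2 b and G3C2 c were not. FOSL1 had a log2 fold change of -0.16 (SE 0.46, limma adjusted p = 0.900). Without replicate c it was -0.70 and passed the threshold (limma adjusted p = 0.0198, on 4 libraries). That fit called 448 genes higher and 457 lower, beside 3 and 4 over all 6 libraries. With the second table alone FOSL1 was 0.14.

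FOSL2 (ENSG00000075426, chromosome 2, 28392448 to 28417312), or FRA2, a subunit with roles in bone and matrix gene expression, had FPKM of 116.2 in WT 1, 99.6 in G3C2 1, 52.8 in WT b, 50.6 in G3C2 b, 60.0 in WT c and 80.8 in G3C2 c. The genotypes overlapped, with the clone slightly lower in pairs 1 and b and higher in pair c. For FOSL2 the log2 fold change was 0.05 (SE 0.23, limma adjusted p = 0.940). With quantile normalization within tables the pair c difference turned from 0.42 to -0.19, so no direction is given for it.

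The makeup of the FOS family by transcript therefore differed most in G3C2 c. FOS gave 34.8% of the summed FPKM of the 4 FOS-family genes in WT 1, 46.0% in G3C2 1, 57.2% in WT b, 39.5% in G3C2 b, 39.3% in WT c and 3.63% in G3C2 c. FOSL2 gave 63.6% and FOSL1 32.7% of the sum in G3C2 c, beside 41.6% and 14.7% in WT c. In G3C2 b the FOSL1 share, 10.9%, was near the 10.2% of WT b, and FOSL2 took 47.0% against 28.0%. The family sum was 188.6 FPKM in WT b and 107.6 in G3C2 b, and 144.3 in WT c and 127.2 in G3C2 c. In pair c, then, the sum as deposited was close between genotypes while its parts were not. With quantile normalization within tables the pair c difference went from 0.42 to -0.19 for FOSL2 and from 0.94 to 0.48 for FOSL1. It went from -3.36 to -3.63 for FOS and changed little for FOSB (-2.69 to -2.66). The sum was not compared under that scaling, so its closeness is given for the deposited scale only.

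**Figure D2:**
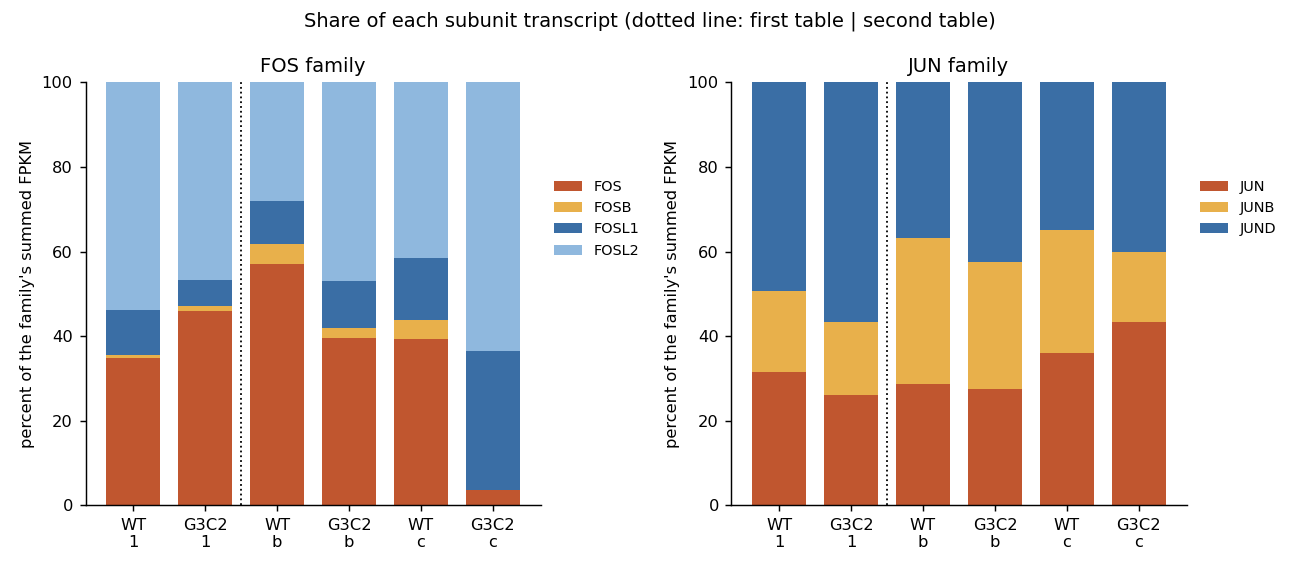
Stacked bars of each gene's percent of the summed FPKM of the FOS family (left) and the JUN family (right), 1 bar per library, with a dotted line between the tables. FOS makes up 3.63% of its family in G3C2 c and between 34.8% and 57.2% in the other 5 libraries, and JUNB makes up 16.5% of the JUN family in G3C2 c and 29.03% in WT c.

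JUN (ENSG00000177606, chromosome 1, 58780788 to 58784327), the founding JUN-family subunit and target of JNK, had FPKM of 37.6 in WT 1, 33.2 in G3C2 1, 84.5 in WT b, 56.7 in G3C2 b, 77.3 in WT c and 72.3 in G3C2 c. The clone was the lower library in every pair, by a small amount in pairs 1 and c as deposited. The log2 fold change of JUN was -0.28 (SE 0.17, limma adjusted p = 0.512), and the pair differences were -0.17, -0.57 and -0.09. With quantile normalization within tables the pair c difference was -0.76. The log2 fold change was then -0.47 (limma adjusted p = 0.271, unadjusted 0.0233), so the size in pair c depends on the scaling.

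JUNB (ENSG00000171223, chromosome 19, 12791496 to 12793315), an immediate-early subunit that can restrain JUN, had FPKM of 22.7 in WT 1, 22.2 in G3C2 1, 101.9 in WT b, 61.7 in G3C2 b, 62.2 in WT c and 27.4 in G3C2 c. Both clone libraries of the second table lay below both WT libraries, but G3C2 b and WT c were almost equal. WT exceeded the clone 1.65-fold in pair b and 2.27-fold in pair c, and the genotypes were nearly equal in pair 1, where the sign of the small difference turned with the scaling (-0.04 as deposited, 0.05 with equal medians and 0.03 with quantile normalization). The log2 fold change was -0.63 (SE 0.38, limma adjusted p = 0.511), with -0.22 without G3C2 c and -0.35 without WT b.

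JUND (ENSG00000130522, chromosome 19, 18279760 to 18281622), the steadily expressed subunit of the family, had FPKM of 58.9 in WT 1, 72.3 in G3C2 1, 108.1 in WT b, 87.8 in G3C2 b, 74.9 in WT c and 67.0 in G3C2 c. The genotypes overlapped in the second table, and the clone was the higher library in the first. The log2 fold change was -0.06 (SE 0.23, limma adjusted p = 0.931). With quantile normalization within tables it was -0.25 (limma adjusted p = 0.713), and the pair c difference went from -0.16 to -0.81. JUN, JUNB and JUND gave 36.03%, 29.03% and 34.9% of the JUN-family sum in WT c, and 43.4%, 16.5% and 40.2% in G3C2 c, so the share of JUNB was the lower one there. In pair b the JUNB share was 34.6% in WT and 29.9% in the clone.

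EGR1 (ENSG00000120738, chromosome 5, 138465490 to 138469315), a zinc-finger factor known to be induced by serum through CArG boxes, was the most abundant of the 10 in WT b and WT c. Its FPKM were 52.6 in WT 1, 55.8 in G3C2 1, 217.9 in WT b, 60.5 in G3C2 b, 174.2 in WT c and 10.1 in G3C2 c. The WT libraries of the second table were 1.25-fold apart, both clone libraries were far below them, and the genotypes were nearly equal in the first table. WT exceeded the clone 3.603-fold in pair b and 17.3-fold in pair c, from 20291, 5033, 13887 and 713 recovered reads in WT b, G3C2 b, WT c and G3C2 c. Ranked from the lowest difference over 15001 genes, EGR1 stood at place 16 in pair b and place 4 in pair c. FOS stood at places 58 and 7 and FOSB at places 45 and 20 in the same pairs. In pair 1 the places were 10087 for EGR1, 13249 for FOS and 12651 for FOSB, above the middle. The log2 fold change of EGR1 was -1.91 (SE 0.82, limma adjusted p = 0.387, unadjusted 0.0578), the largest in size of the 10 in this fit, whereas with limma-voom FOSB was larger (-3.40, beside -2.97 for EGR1). It was -0.92 without G3C2 c and -2.91 without replicate 1, and no alternative brought it past the threshold.

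**Figure D3:**
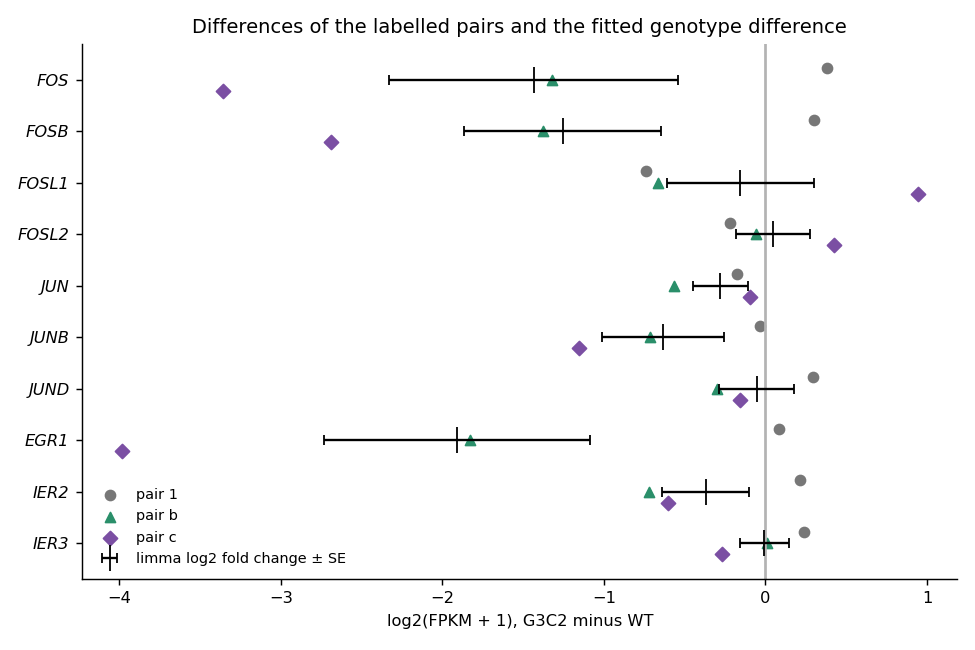
Difference of log2(FPKM + 1), clone minus WT, for each gene in pairs 1 (circle), b (triangle) and c (diamond), with the limma log2 fold change (vertical tick) and its SE (bar). For EGR1, FOS and FOSB the pairs run from 0.08 to 0.38 in pair 1 down to between -3.98 and -2.69 in pair c, while JUN, JUND, FOSL2 and IER3 stay between -0.57 and 0.42.

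IER2 (ENSG00000160888, chromosome 19, 13150415 to 13154908), an immediate-early nuclear protein, had FPKM of 23.4 in WT 1, 27.3 in G3C2 1, 42.9 in WT b, 25.6 in G3C2 b, 28.8 in WT c and 18.6 in G3C2 c. In the second table both clone libraries lay below both WT libraries, with G3C2 b only a little under WT c. WT exceeded the clone 1.67-fold in pair b and 1.55-fold in pair c. Its log2 fold change was -0.37 (SE 0.27, limma adjusted p = 0.580), and the clone was the higher library in pair 1. Without WT b the value was -0.13, and without replicate 1 it was -0.66.

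IER3 (ENSG00000137331, chromosome 6, 30743199 to 30744554), a stress-inducible regulator of survival and ERK signalling, could be described from the first table alone, with 23.4 FPKM in WT 1 and 27.8 in G3C2 1. In the second table it had 0.547 in WT b, 0.556 in G3C2 b, 0.755 in WT c and 0.458 in G3C2 c, from between 14 and 26 recovered reads. Its chromosomal neighbours shared this pattern: of 39 tested protein-coding genes within 1000000 bases, 37 (94.9%) had at least 1 FPKM in both first-table libraries and under 1 in all 4 of the second, against 6.63% of 12152 such genes overall. TUBB, a housekeeping tubulin in this window, had 663.6 and 691.4 FPKM in the first table and was listed at 0 in the second. Its second-table values are therefore not read as levels. They do enter the counts and medians over the 10 members, and its log2 fold change of -0.01 (SE 0.15, limma adjusted p = 0.990) includes second-table values close to the pseudocount's floor. The reason for these low values was not tested.

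The plot of pair b against pair c sets the members among all tested genes. EGR1, FOS and FOSB lie at the lower left edge, JUNB and IER2 nearer the centre, and FOSL1 on the other side of 0 in pair c. The wide vertical spread of all genes in that plot is the larger spread of pair c described above (SD 0.68, beside 0.37 for pair b).

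**Figure D4:**
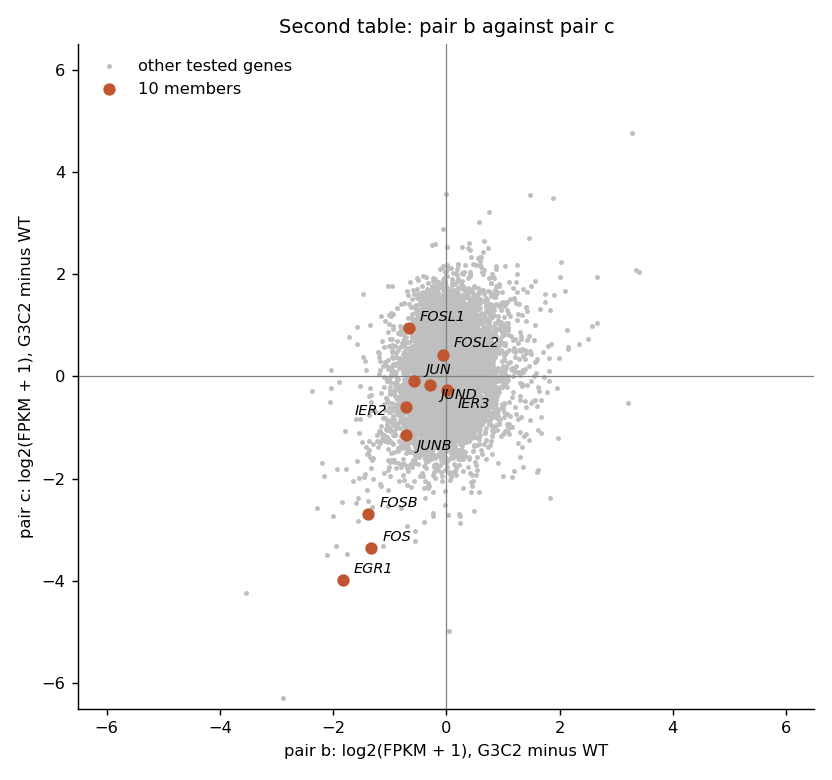
Difference of log2(FPKM + 1), clone minus WT, in pair b (x axis) and pair c (y axis) of the second table, for 15001 tested genes (grey) and the 10 members (large points with names). EGR1 (-1.83 and -3.98), FOS (-1.32 and -3.36) and FOSB (-1.38 and -2.69) are at the lower left.

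Of all tested protein-coding genes, those nearest to FOS in pattern over the 6 libraries, by the root-mean-square difference of table-centred log2(FPKM + 1), were EGR1 (0.33), FOSB (0.42) and BMF (0.49), a BH3-only cell-death protein. Those nearest to EGR1 were FOS (0.33), FOSB (0.43) and C3AR1 (0.53), a complement receptor. C3AR1 differed from EGR1 in the first table, with 5.23 FPKM in WT 1 and 1.35 in G3C2 1, beside 52.6 and 55.8 for EGR1. BMF had FPKM of 8.89, 5.14, 5.77 and 0.545 in WT b, G3C2 b, WT c and G3C2 c, with G3C2 c again the lowest. No nearest genes are given for IER3, because its second-table values are near 0. Among the members, JUNB was nearest to IER2 (0.24), JUND and IER2 to each other (0.18), FOSL1 to FOSL2 (0.34) and FOSL2 to JUN (0.25).

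The neighbours of EGR1, FOS and FOSB on the chromosome had median differences far smaller than theirs. Relative to all tested protein-coding genes, the median difference of 18 genes within 1000000 bases of EGR1 was 0.01, -0.09 and -0.05 in pairs 1, b and c. For the 21 neighbours of FOS it was -0.04, -0.03 and -0.31, and for the 44 of FOSB it was -0.04, -0.03 and 0.17. In pairs b and c, EGR1, FOS and FOSB each lay more than 1 unit below these medians.

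The order of levels, comparable between genes since FPKM is per length, differed between libraries. In WT b, EGR1 (217.9) stood first, then JUND, FOS and JUNB (101.9 to 108.1), JUN (84.5), FOSL2, IER2, FOSL1 and FOSB (8.70). JUND, FOS, JUNB and JUN had overlapping ranges over WT b and WT c, and FOSL2 overlapped FOS, so the order within these is not resolved. In G3C2 c, FOSL2 (80.8), JUN (72.3) and JUND (67.0) stood first, followed by FOSL1 (41.6), JUNB (27.4), IER2 (18.6), EGR1 (10.1), FOS (4.61) and FOSB (0.168). In WT 1 the first were FOSL2 (116.2), FOS (75.2), JUND (58.9) and EGR1 (52.6), on the first table's own scale.

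Other immediate-early genes were taken from a list of 30, of which 27 were tested. In this list 0 passed limma's adjusted threshold in either direction, 10 of 27 were lower in the clone in all 3 pairs (18.6% of all tested genes) and 2 higher (17.8%), and 7 had an unadjusted p under 0.05, all lower, beside 1115 lower and 928 higher of 15001. Of the 27, 11 had both clone libraries of the second table below both WT libraries (17.9% of all tested genes) and 2 above (22.1%). The list's median log2 fold change was -0.25, beside 0.01 for all tested genes. ATF3, a stress-induced partner of JUN, had FPKM of 40.9 in WT 1, 20.6 in G3C2 1, 8.36 in WT b, 3.01 in G3C2 b, 15.7 in WT c and 6.002 in G3C2 c. The clone was the lower library in every pair, replicate 1 included, and both clone libraries of the second table lay below both WT libraries. Its log2 fold change was -1.14 (SE 0.30, limma adjusted p = 0.211). KLF6, a zinc-finger tumour suppressor, and RHOB, a small GTPase, had log2 fold changes of -0.98 (SE 0.27) and -0.86 (SE 0.27), with limma adjusted p of 0.213 and 0.266. EGR2, a paralog of EGR1, resembled EGR1 in the second table, with FPKM of 4.57 in WT b, 1.28 in G3C2 b, 2.35 in WT c and 0.108 in G3C2 c, and was 1.34 in WT 1 and 1.83 in G3C2 1. The matricellular genes CCN1 and CCN2, the most abundant of the list, had log2 fold changes of -0.01 (SE 0.33) and -0.53 (SE 0.36).

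**Figure D5:**
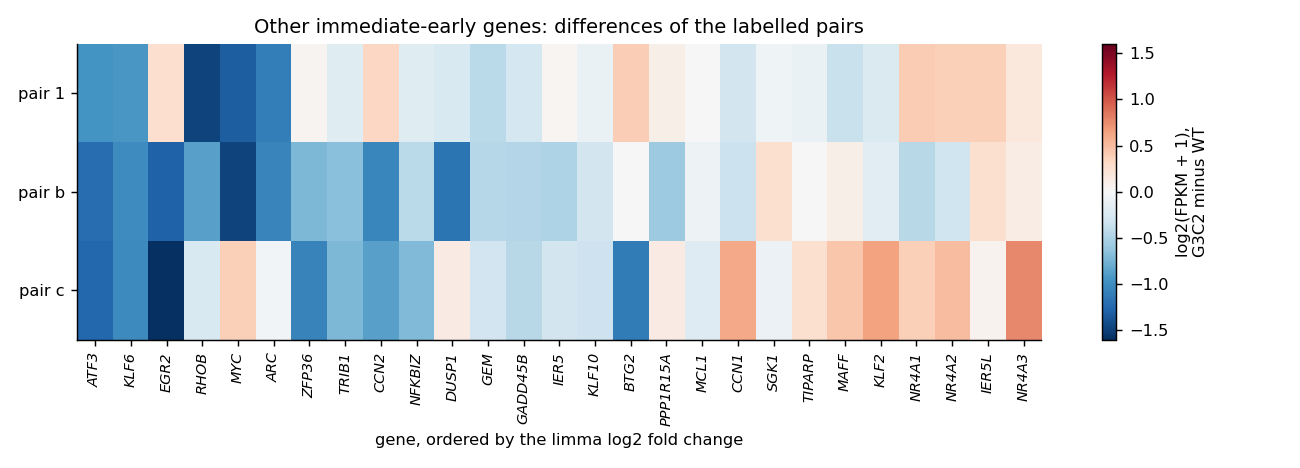
Difference of log2(FPKM + 1), clone minus WT, of the 27 tested genes of the immediate-early list in pairs 1, b and c (colour scale at right, blue lower and red higher in the clone), ordered by the limma log2 fold change. ATF3 and KLF6 at the left are lower in all 3 pairs, between -1.25 and -0.93, and EGR2 is lower in b and c only.

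Of 22 further leucine-zipper factors that can pair with or resemble AP-1 (ATF3 and MAFF are on both lists), 18 were tested and 0 were called by limma. At an unadjusted p under 0.05 there were 2, both lower, beside 13.6% of all tested genes. In all 3 pairs 4 were lower (18.6% of all tested genes) and 4 higher (17.8%). The median log2 fold change was 0.07. ATF4 and NFE2L1, the most abundant, had log2 fold changes of 0.26 (SE 0.25) and 0.30 (SE 0.15). MAF, a large leucine-zipper factor, had -0.93 (SE 0.45) and CREM, a cyclic-AMP-responsive factor, -0.40 (SE 0.16), with limma adjusted p of 0.432 and 0.346. MAF had its widest gap in pair c, with 19.2 FPKM in WT c and 3.44 in G3C2 c.

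Upstream of these genes, 26 of 27 listed kinases, SRF cofactors and EGR corepressors were tested and 0 were called by limma. At an unadjusted p under 0.05, 2 were higher and 1 lower, beside 13.6% of all tested genes. In all 3 pairs 5 were lower (18.6% of all tested genes) and 6 higher (17.8%). The median log2 fold change was -0.03. RPS6KA1, counted among the tested genes and in this median, had 47.3 and 29.9 FPKM in WT 1 and G3C2 1 but was listed at 0 throughout the second table. Its second-table values are not read as levels. MAP2K2, an abundant kinase of the ERK cascade, had a log2 fold change of -0.05 (SE 0.17). NAB2, a corepressor of EGR proteins and itself an EGR1 target, was higher in the clone in every pair, with 20.7 and 40.2 FPKM in WT 1 and G3C2 1, 25.5 and 39.0 in the b libraries and 23.7 and 33.5 in the c libraries. Both clone libraries of the second table lay above both WT libraries for NAB2, and its log2 fold change was 0.67 (SE 0.16, limma adjusted p = 0.188). MAP3K1, an activator of the JNK pathway, had 0.61 (SE 0.16) and MAPK9, one of the JNK kinases, -0.54 (SE 0.14), both with a limma adjusted p of 0.211.

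Of 17 feedback regulators of ERK and other MAP kinases, 14 were tested and 0 were called by limma. At an unadjusted p under 0.05 there was 1, lower, beside 13.6% of all tested genes. In all 3 pairs 3 were lower (18.6% of all tested genes) and 2 higher (17.8%). The median log2 fold change was -0.06. DUSP16, counted among the tested genes and in this median, had 69.07 and 63.25 FPKM in WT 1 and G3C2 1 but was listed at 0 throughout the second table. Its second-table values are not read as levels. DUSP5, a nuclear phosphatase that binds ERK, had FPKM of 12.9 in WT 1, 6.89 in G3C2 1, 8.45 in WT b, 3.88 in G3C2 b, 8.46 in WT c and 5.61 in G3C2 c. It was lower in the clone in every pair without overlap in the second table, with a log2 fold change of -0.76 (SE 0.16, limma adjusted p = 0.164). DUSP10 and SPRED3 had log2 fold changes of -0.63 (SE 0.27) and -0.43 (SE 0.22), and the abundant DUSP1 and ERRFI1 -0.43 (SE 0.32) and 0.29 (SE 0.34).

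Of 26 genes commonly given as AP-1 targets, 23 were tested and 0 were called by limma. At an unadjusted p under 0.05, 2 were higher and 1 lower, beside 13.6% of all tested genes. In all 3 pairs 3 were lower (18.6% of all tested genes) and 6 higher (17.8%). The median log2 fold change was 0.08. Of the 23, 2 had both clone libraries of the second table below WT (17.9% of all tested genes) and 5 above (22.1%), the latter near the background. PLAUR, the urokinase receptor, had FPKM of 65.8 in WT 1, 116.3 in G3C2 1, 23.7 in WT b, 35.8 in G3C2 b, 16.6 in WT c and 54.1 in G3C2 c, higher in the clone each time, with a log2 fold change of 1.01 (SE 0.23, limma adjusted p = 0.181). HMOX1, heme oxygenase, had -0.85 (SE 0.20, limma adjusted p = 0.188), and the cytokine LIF 0.74 (SE 0.38). The abundant FTH1, a ferritin chain, and MT2A, a metallothionein, had 0.41 (SE 0.21) and -0.07 (SE 0.23).

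Among 13 stress and heat-shock genes, all tested, 0 were called by limma. At an unadjusted p under 0.05 there was 1, higher, beside 13.6% of all tested genes. In all 3 pairs 1 was lower (18.6% of all tested genes) and 5 higher (17.8%). HSPA1B, among the 5, had 19.3 and 20.4 FPKM in WT 1 and G3C2 1 but at most 0.0352 in the second table. Its direction there is not read, nor is that of HSPA1A, at most 0.0759 there. The list's median log2 fold change was 0.11. HSP90AA1, a cytosolic chaperone, had 1.39 (SE 0.38, limma adjusted p = 0.215), with 91.3 FPKM in WT c and 522.2 in G3C2 c, and HSPA8 0.39 (SE 0.31). HSPA5 and DNAJA1 had 0.38 (SE 0.18) and 0.35 (SE 0.25). The ZFP36 family, 3 genes whose proteins bind AU-rich elements, had 0 called by limma. At an unadjusted p under 0.05, 1 was higher and 1 lower, beside 13.6% of all tested genes. ZFP36, itself an immediate-early gene, had -0.58 (SE 0.24, limma adjusted p = 0.365) and ZFP36L2 0.56 (SE 0.18, limma adjusted p = 0.261). ZFP36 resembled JUNB, with 13.97 and 8.11 FPKM in WT b and G3C2 b and 13.1 and 5.76 in WT c and G3C2 c, beside 7.03 and 7.24 in WT 1 and G3C2 1.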

How the data were processed

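Poly(A) RNA of U2OS cells was measured in 6 libraries, grouped as WT or G3C2 and labelled 1, b or c from the sample titles. The authors deposited FPKM per gene, per the file headers, in a table with replicate 1 and another with replicates b and c. Tools named in the submitters' processing notes are CASAVA and HISAT2, with the build GRCh38.p12 and without versions. How reads were counted, and whether by strand, is not given in the sources used here. Of 60448 identifiers in one table and 59108 in the other, 56982 were shared. FPKM summed to at least 705014 per library in the first table and at most 319282 in the second, so genotypes were compared within a table. This does not remove scale differences inside the second table, where the sums were 264495 in WT b, 258735 in G3C2 b, 235190 in WT c and 319282 in G3C2 c.

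FPKM times the GENCODE 29 exon length gave whole reads for 97.3% to 97.4% of the second table's values, within a tolerance of 0.02 reads. Genotypes were tested on log2(FPKM + 1) with limma 3.58.1 (R 4.3.3), using genotype and table terms, a trended prior variance, and p-values adjusted by Benjamini-Hochberg over 15001 genes. The code was tested on simulated data. Deviations from group means correlated between same-labelled libraries (r = 0.93 for 1, 0.80 for b and 0.60 for c). With every r above 0.1, differences are also shown by same-labelled pair, but the fit reported had no pair term. The scale of separate tables produces such r too. Within the second table alone r was -0.17, which gives no ground for pairing its libraries by label. A fit with the label as a block was an alternative, as were other filters, pseudocounts, scalings, variance models, single tables and omitted libraries. The limma-voom fit used the library sizes implied by the FPKM, 25410000 in WT c and 22560000 in G3C2 c, so it kept the deposited scale. The recovered reads of these libraries were 22610000 and 25840000.

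The members and gene lists were chosen with earlier results of these data known. All members were named. From each list, genes past the threshold were to be named or, with none, the 2 with the largest mean FPKM and up to 3 with the largest change in 1 direction in all 3 pairs. The genes nearest in pattern were printed for FOS and EGR1. Counts without IER3 or without 1 clone library were added after seeing the data. EGR2 and the genes listed beside counts were chosen after their values were seen. Sequence searches and plots used Python 3.11.15, pandas 2.3.3, numpy 2.4.6 and matplotlib 3.10.9. Some genes that this rule or the marker lists would name are not reported here.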

Additional observations from a re-analysis of the deposited data

How the results depend on the processing

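Over 20 alternatives, 9 of which left out libraries, members called higher stayed at 0, and members called lower ranged from 0 to 1 when libraries were left out and were 0 otherwise. The 1 was FOSL1 without replicate c (-0.70, stronger), a fit with few residual degrees of freedom that called 448 genes higher and 457 lower. With the replicate block 0 members were called, and the limma adjusted p was 0.484 for FOS, 0.454 for FOSB and 0.408 for EGR1, so pairing changed no member's call. Genes called higher and lower, 3 and 4 in the fit reported, were 0 and 1 with the replicate block, and 0 and 0 with no filter (unadjusted 1187 and 1803), with no table term (73 and 150), and with the second table alone, without (539 and 571) or with the block (360 and 493). A mean FPKM of at least 5 gave 1 lower, equal medians 5 higher, and limma-voom on the recovered reads 0 higher. Leaving out libraries gave 0 to 448 higher and 0 to 457 lower. The cause of these shifts was not tested.

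Of 199 member values, 177 kept direction and side of the threshold, and 21 turned direction, all of members near 0. FOSL1 was 0.14 with the second table alone, with or without the block, 0.12 with limma-voom, and -0.73 to 0.26 with libraries left out. FOSL2 was -0.14 with quantile normalization and -0.18 to 0.20 with libraries left out, and JUND -0.23 to 0.14. IER3 was 0.024 with equal medians, 0.083 with quantile normalization and -0.13 to 0.12 with libraries left out. EGR1, FOS, FOSB, JUN, JUNB and IER2 were below 0 in all alternatives that gave a value; EGR1 ranged from -2.97 to -0.87, FOS from -2.45 to -0.33 and FOSB from -3.40 to -0.54. A mean FPKM of at least 5 removed FOSB. The first table's depth is unknown, and 21 reads of FOSB in G3C2 c limit its ratio.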
